A study of Mus musculus with 10 samples.

Results

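The pericyte and mural cell genes Rgs5, Pdgfrb, Kcnj8, Abcc9, Anpep, Des, Vtn, Notch3 and Acta2 were followed across all 20 probe sets that the platform annotation assigns to one of these 9 symbols alone, out of 45037 probe sets apart from controls. The genes were chosen by symbol as known genes of pericytes and vascular smooth muscle, with the log2 values and calls of these same arrays already known, so their counts are descriptions. Rgs5 has 4 probe sets, Abcc9 and Acta2 have 3 each, Pdgfrb, Des, Vtn and Notch3 have 2 each, and Kcnj8 and Anpep have 1 each. Tissue was whole hippocampus from adult female SJL/J mice, obtained at 8 to 10 weeks of age and sampled 2 days after an axonal lesion. In the TPlp+AxL group, 5 mice received T cells specific for proteolipid protein (Plp), a myelin protein, by adoptive transfer and were then lesioned. In the AxL group, 5 mice had the lesion without the transfer. All 10 mice were therefore lesioned, and unlesioned mice are not analysed here. Each mouse gave 1 array, and the values are log2 expression values that the authors made with RMA. RMA is a background correction, normalization and summary of Affymetrix probes.

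Mural cells wrap the vessel wall: pericytes sit on capillaries and smooth muscle cells ring arterioles. Endothelial cells hold pericytes to the vessel through platelet-derived growth factor B, which binds the receptor PDGFR-beta on pericytes, and Notch3 signalling keeps arterial smooth muscle mature. In the brain, pericytes help to form the blood-brain barrier, and the contractile tone of mural cells sets local blood flow. Several of the 9 genes are also used by other cells: Anpep by myeloid cells and fibroblasts, Acta2 by myofibroblasts, and Pdgfrb by fibroblasts.

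RefSeq promoters (build GRCm38.p6, 250 bases before to 50 bases after the start site) were given for 8 of the 9 genes. They were searched on both strands for the core TGGGAA bound by RBPJ, the DNA-binding partner of Notch receptors, and for the E-box CANNTG. The search also covered the CArG box bound by serum response factor in smooth muscle genes, in the strict form CCWWWWWWGG (W is A or T). The RBPJ core was present in 4 of the 8 promoters, those of Vtn, Kcnj8, Abcc9 and Acta2, and in 25.6% of all 32851 promoters in the table. The strict CArG form was in 0 of the 8 and in 1.63% of all promoters, and the E-box was in 7 of the 8 and in 72.3%. Near matches to the CArG form were not counted in the 8 or in all promoters, so those named here are examples only. The Kcnj8 promoter below holds a stretch that breaks the form at a single base. The Acta2 promoter below holds ccctatatgg and ccttgttTGG, which each break the form at a single base. The promoter of Rgs5, the gene with the largest difference below, is shown with the 4 that hold an RBPJ core, in capitals.
Rgs5 (chr1:169655251-169655550, plus strand): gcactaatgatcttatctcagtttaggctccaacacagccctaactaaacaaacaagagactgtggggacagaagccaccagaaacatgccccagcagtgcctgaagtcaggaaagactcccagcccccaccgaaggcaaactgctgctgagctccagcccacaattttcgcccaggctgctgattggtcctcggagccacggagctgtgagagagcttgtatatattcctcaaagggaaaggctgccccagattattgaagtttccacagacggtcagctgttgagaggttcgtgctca
Vtn (chr11:78498870-78499169, plus strand): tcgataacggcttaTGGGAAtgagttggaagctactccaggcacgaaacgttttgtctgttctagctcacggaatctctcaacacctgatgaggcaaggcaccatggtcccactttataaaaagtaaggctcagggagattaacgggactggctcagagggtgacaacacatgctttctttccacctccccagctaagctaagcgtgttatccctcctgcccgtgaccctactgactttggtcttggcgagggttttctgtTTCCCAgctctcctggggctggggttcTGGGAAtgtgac
Kcnj8 (chr6:142571565-142571864, minus strand): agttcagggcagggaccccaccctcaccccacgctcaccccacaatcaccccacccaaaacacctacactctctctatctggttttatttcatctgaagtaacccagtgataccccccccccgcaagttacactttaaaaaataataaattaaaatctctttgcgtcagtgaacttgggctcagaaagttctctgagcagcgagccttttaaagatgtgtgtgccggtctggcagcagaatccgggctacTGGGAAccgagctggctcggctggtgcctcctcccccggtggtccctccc
Abcc9 (chr6:142702225-142702524, minus strand): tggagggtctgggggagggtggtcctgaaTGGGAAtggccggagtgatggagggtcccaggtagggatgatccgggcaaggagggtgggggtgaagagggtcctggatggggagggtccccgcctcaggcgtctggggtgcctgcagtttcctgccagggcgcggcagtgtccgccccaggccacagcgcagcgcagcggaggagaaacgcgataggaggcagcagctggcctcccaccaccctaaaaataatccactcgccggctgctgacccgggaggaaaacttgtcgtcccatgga
Acta2 (chr19:34255324-34255623, minus strand): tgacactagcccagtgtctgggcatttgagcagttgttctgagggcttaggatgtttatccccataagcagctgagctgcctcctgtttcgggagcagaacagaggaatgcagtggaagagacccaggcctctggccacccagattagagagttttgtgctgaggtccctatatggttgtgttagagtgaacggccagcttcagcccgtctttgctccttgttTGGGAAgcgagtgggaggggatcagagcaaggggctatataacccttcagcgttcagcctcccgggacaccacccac
Vtn has 3 cores, 1 of them on the opposite strand, and in Acta2 the core starts 27 bases before the start site. Kcnj8 and Abcc9 are neighbouring protein-coding genes on chromosome 6 and encode the channel pore and the sulfonylurea receptor of 1 potassium channel. A match is a stretch of letters in this window and was not tested as a binding site.

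The comparison of TPlp+AxL with AxL asks which hippocampal transcripts differ after a lesion in the presence of myelin-specific T cells. None of the 20 mural probe sets passed an adjusted p of 0.05 in limma, in either direction. Among all probe sets, 0.835% passed, 0.646% higher and 0.189% lower in TPlp+AxL. The log2 difference (TPlp+AxL minus AxL) was negative in 15 of the 20 probe sets and positive in 5. It ran from -0.58 for Rgs5 to 0.10 for Anpep, with a median of -0.10 against -0.0034 over all probe sets. At an unadjusted p under 0.05, 8 mural probe sets had a lower and 1 a higher mean in TPlp+AxL, and 14.3% of all probe sets lay under that value in either direction. Taking only the brightest probe set per gene, 8 of the 9 genes had negative differences, against 62.7% of all genes. The median of the 9 was -0.12, against -0.03 over 18193 genes each taken by its brightest probe set. With the mean of each gene's probe sets these medians were -0.068 and -0.015. In these bulk samples the number of mural cells and the RNA per mural cell cannot be told apart, and a loss of either was not tested.

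**Figure D1:**
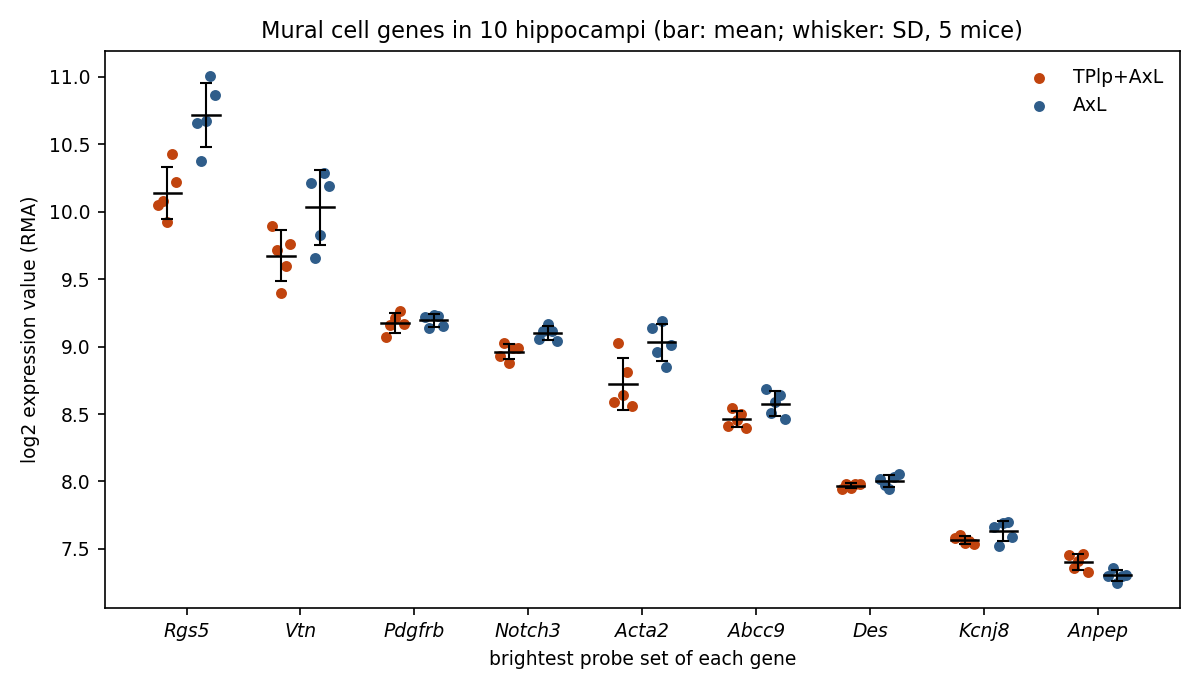
Log2 expression values (vertical axis) of the brightest probe set of each of the 9 mural cell genes (horizontal axis), 1 point per mouse, TPlp+AxL left of AxL, with the mean as a bar and the SD as a whisker (n = 5 each). Rgs5 averaged 10.14 in TPlp+AxL and 10.72 in AxL, while Pdgfrb averaged 9.18 in TPlp+AxL and 9.20 in AxL. Levels of different genes are not comparable between probe sets.

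Rgs5, a regulator of G protein signalling that dampens vasoconstrictor signals and is a standard marker of brain pericytes, had the largest difference of the 9 genes. Its brightest probe set (1417466_at) read 10.05, 10.08, 9.92, 10.43 and 10.22 in TPlp+AxL mice 1 to 5, against 10.66, 10.38, 10.67, 11.01 and 10.87 in AxL mice 1 to 5. The groups overlapped only by TPlp+AxL 4, whose value was above that of AxL 2. The difference was -0.58 (SE 0.12, 95% interval -0.84 to -0.32), a level 0.671 times that of AxL, and its limma adjusted p of 0.0532 lay just outside the threshold. By p it ranked 387th of the 45037 probe sets, of which 376 passed. Its adjusted p was 0.0442 without TPlp+AxL 4 and 0.0220 without AxL 2, so it passed in both cases. These arrays are the ones behind the overlap, so leaving either out widens the difference. With any other single array left out its adjusted p was 0.0781 to 0.146, and it did not pass. The probe set passed after subtraction of each array's median (-0.60, adjusted p = 0.0349), and after cyclic loess normalization it did not (-0.49, adjusted p = 0.0595).

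A second Rgs5 probe set (1420941_at) read 8.88, 9.06, 9.05, 9.60 and 9.14 in TPlp+AxL, against 9.65, 9.36, 9.52, 9.76 and 9.52 in AxL. TPlp+AxL 4 was again the high array of its group and lay inside the AxL range, while the other 4 TPlp+AxL arrays were below all AxL arrays. The difference was -0.42 (SE 0.12, adjusted p = 0.160), and without TPlp+AxL 4 it was -0.53 (adjusted p = 0.025). With any other single array left out the adjusted p was 0.102 to 0.325. The 2 dimmer probe sets disagreed with each other in sign. The dimmest (1420942_s_at) had -0.19 (95% interval -0.44 to 0.07) and the other (1420940_x_at) 0.08 (95% interval -0.03 to 0.20). Affymetrix gives the endings _s_at and _x_at to probe sets whose probes can also match other transcripts. The same limit holds for the brightest probe sets of Notch3, Abcc9 and Acta2 below, which end in _s_at.

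Among the receptors, Notch3, which smooth muscle cells and pericytes use to receive signals from endothelial Notch ligands, had the only probe set of the 20 whose groups did not overlap. That probe set (1421965_s_at) read 8.93, 9.03, 8.88, 8.99 and 8.99 in TPlp+AxL, against 9.05, 9.12, 9.17, 9.12 and 9.04 in AxL. All 5 TPlp+AxL values were below all 5 AxL values, with a narrow gap between 9.03 in TPlp+AxL 2 and 9.04 in AxL 5. Over all probe sets the groups were apart in this direction in 1.64% and in the other direction in 1.94%. The difference was -0.14 (SE 0.04, adjusted p = 0.167). The second Notch3 probe set (1421964_at) had the same difference of -0.14 (SE 0.04, adjusted p = 0.204), with means of 7.28 ± 0.07 in TPlp+AxL and 7.42 ± 0.06 in AxL (SD, n = 5 each).

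Pdgfrb, the pericyte receptor for platelet-derived growth factor B, differed little. Its brighter probe set (1436970_a_at) read 9.07, 9.16, 9.21, 9.27 and 9.17 in TPlp+AxL, against 9.22, 9.14, 9.24, 9.23 and 9.15 in AxL. The highest and the lowest of the 10 values both came from TPlp+AxL. The difference was -0.02 (SE 0.04, adjusted p = 0.852), and its 95% interval of -0.11 to 0.07 leaves out the size seen for Rgs5. The sign of this value was positive after repeated quantile (0.02) or cyclic loess (0.03) normalization. The dimmer Pdgfrb probe set (1417148_at) had -0.06 (95% interval -0.16 to 0.05).

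Kcnj8 and Abcc9 encode Kir6.1 and SUR2, which together form the ATP-sensitive potassium channel of pericytes and vascular smooth muscle. Kcnj8, with 1 probe set, read 7.58, 7.60, 7.54, 7.56 and 7.54 in TPlp+AxL, against 7.66, 7.52, 7.69, 7.70 and 7.59 in AxL. AxL 2 was the lowest of the 10 arrays, and AxL 5 lay inside the TPlp+AxL range. The difference was -0.07 (SE 0.04, adjusted p = 0.456). For Abcc9, the brightest probe set (1435752_s_at) read 8.41, 8.54, 8.45, 8.50 and 8.40 in TPlp+AxL, against 8.69, 8.51, 8.59, 8.64 and 8.46 in AxL, and the groups overlapped. Its difference was -0.12 (SE 0.05, adjusted p = 0.323), and the middle probe set (1435751_at) had -0.13 (SE 0.05, adjusted p = 0.254). The dimmest Abcc9 probe set (1420408_a_at) had 0.08 (95% interval -0.02 to 0.18). The channel genes Kcnj11 and Abcc8, which pancreatic beta cells and neurons use in place of this pair, had differences of -0.05 each (adjusted p = 0.665 and 0.656).

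Vtn encodes vitronectin, an adhesive glycoprotein that brain pericytes secrete into the vessel basement membrane and that the liver releases into plasma. The brighter probe set (1420484_a_at) read 9.90, 9.72, 9.40, 9.60 and 9.76 in TPlp+AxL, against 10.21, 9.66, 9.82, 10.29 and 10.19 in AxL. AxL 1, AxL 4 and AxL 5 were above every TPlp+AxL array, and AxL 2 and AxL 3 lay within the TPlp+AxL range. The difference was -0.36 (SE 0.13, 95% interval -0.64 to -0.08, adjusted p = 0.247). The dimmer Vtn probe set (1455098_a_at) had -0.24 (SE 0.12, adjusted p = 0.394) and the same 3 high AxL arrays, at 9.73, 9.84 and 9.67 in AxL 1, AxL 4 and AxL 5. Anpep, the cell surface aminopeptidase CD13, was the only gene of the 9 whose brightest probe set had a positive difference. It read 7.45, 7.36, 7.41, 7.46 and 7.33 in TPlp+AxL, against 7.30, 7.36, 7.25, 7.30 and 7.31 in AxL, a difference of 0.10 (SE 0.04, adjusted p = 0.278). AxL 2 was the array of its group that reached the TPlp+AxL range.

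Of the cytoskeletal genes, Acta2 encodes smooth muscle alpha-actin, the contractile actin of arteriolar smooth muscle, which most capillary pericytes hold at low levels. Its brightest probe set (1416454_s_at) read 8.59, 9.03, 8.64, 8.81 and 8.56 in TPlp+AxL, against 9.14, 8.96, 9.19, 8.85 and 9.02 in AxL. The groups overlapped by TPlp+AxL 2, which was above AxL 2, AxL 4 and AxL 5, and the other 4 TPlp+AxL arrays were below every AxL array. The difference was -0.31 (SE 0.09, 95% interval -0.51 to -0.10, adjusted p = 0.181), and without TPlp+AxL 2 it was -0.38 (adjusted p = 0.0516). That was the lowest adjusted p with a single array left out, and the highest was 0.371. The other 2 Acta2 probe sets, with low mean signals of 6.61 and 6.51, had 0.04 (1456658_at) and -0.09 (1444105_at). Des encodes desmin, the muscle intermediate filament that pericytes also make. Its probe sets had -0.04 (1426731_at, SE 0.03, adjusted p = 0.636) and 0.03 (1426732_at, SE 0.04, adjusted p = 0.757). In the brighter one the TPlp+AxL values, 7.94 to 7.98, lay inside the AxL range of 7.94 to 8.05.

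**Figure D2:**
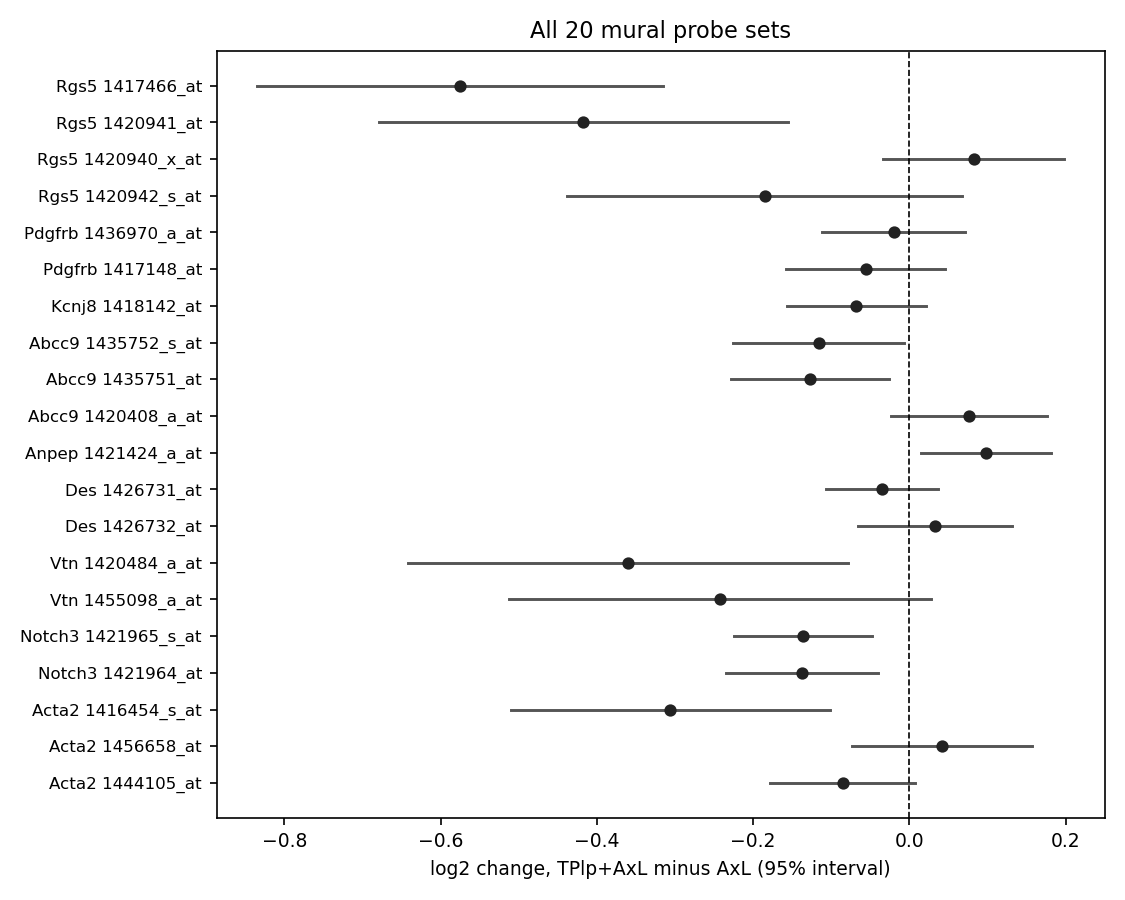
Log2 difference, TPlp+AxL minus AxL (horizontal axis, point), with its 95% interval from limma (line), for all 20 mural probe sets (vertical axis, grouped by gene). The largest is -0.58 for Rgs5, Pdgfrb and Des lie near 0, and 5 of the 20 points are above 0.

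Signal level moved with the groups over the whole table. Probe sets with a mean log2 value between 7 and 8 had a median difference of 0.03, and the median was -0.0046 between 8 and 9, -0.06 between 9 and 10 and -0.10 between 10 and 11. The quartiles of all probe sets were -0.15 and -0.03 at 10 to 11, where the brightest Rgs5 probe set had -0.58. At 9 to 10, where the quartiles were -0.12 and 0.0025, the second Rgs5 probe set had -0.42, the Vtn probe sets had -0.36 and -0.24, and Pdgfrb had -0.02. Cyclic loess normalization left medians of -0.0051 and -0.0086 at these 2 levels. After it Rgs5 had -0.49, Vtn -0.29, Acta2 -0.27 and Notch3 -0.10 by their brightest probe sets, and the median of the 9 genes was -0.10.

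**Figure D3:**
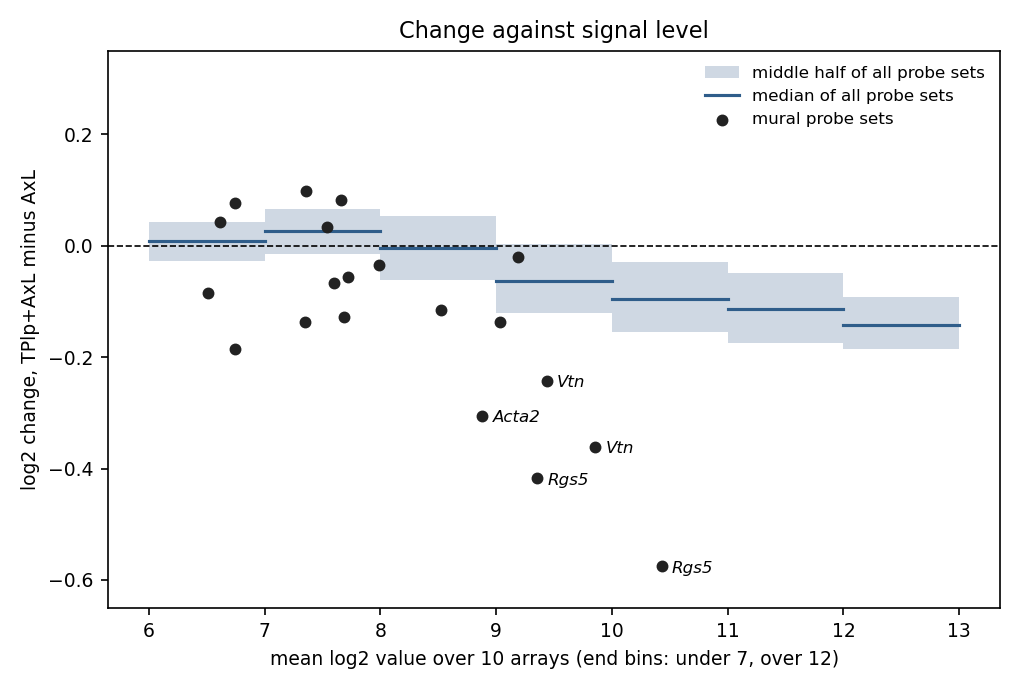
Log2 difference, TPlp+AxL minus AxL (vertical axis), against the mean log2 value over 10 arrays (horizontal axis) for the 20 mural probe sets (points), with the median (line) and the quartiles (band) of all probe sets at each level. The labelled Rgs5, Vtn and Acta2 points lie below the band.

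Genes of the same cells and pathways that are not among the 9 were counted in the same way. Over all 18193 genes, 178 passed higher and 51 lower in TPlp+AxL, and 62.7% had a negative difference, with a median of -0.03. After cyclic loess normalization that median was -0.01, and it was -0.05 and -0.04 for the further pericyte and smooth muscle genes below. None of 23 further pericyte genes passed (16 negative and 7 positive, or 69.6% negative, median -0.06), a share near that of all genes. The 2 with the smallest p were Higd1b, a mitochondrial protein gene found in pericytes, at -0.28 (adjusted p = 0.0549), and Ifitm1, at 0.66 (adjusted p = 0.0802), an interferon-induced membrane protein gene. For Higd1b, 7.56 to 7.71 in TPlp+AxL lay entirely below 7.79 to 8.12 in AxL. Of 20 smooth muscle genes beside Acta2 and Des, 0 passed (13 negative, or 65%, again near that of all genes, median -0.04), led by the transcription factor Srf (-0.21, adjusted p = 0.115) and the tropomyosin Tpm1 (-0.17, adjusted p = 0.118).

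On the ligand side, 0 of 5 genes of platelet-derived growth factors and Pdgfra passed, all with negative differences. Pdgfb, the endothelial ligand of Pdgfrb, had -0.26 (SE 0.13, adjusted p = 0.373) by its brighter probe set. Its dimmer probe set had -0.01 (adjusted p = 0.946). Pdgfa had -0.11 (adjusted p = 0.434). Of 13 genes of Notch ligands, receptors and targets 0 passed (10 negative, median -0.08, or -0.03 after cyclic loess). Notch4, an endothelial Notch receptor, had -0.23 (adjusted p = 0.163) and the ligand gene Jag1 -0.16 (adjusted p = 0.282). In angiopoietin and TGF-beta signalling 0 of 14 passed (median -0.11, or -0.09 after cyclic loess). Tek, the endothelial receptor for pericyte angiopoietin, had -0.31 (adjusted p = 0.0672) and Tgfbr1 -0.22 (adjusted p = 0.115).

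Among receptors and partners of vitronectin, 1 of 6 passed: Plaur, the urokinase receptor, which also binds vitronectin and which myeloid cells express, rose by 0.25 (SE 0.05, adjusted p = 0.0408), with 8.70 to 8.88 in TPlp+AxL above 8.43 to 8.66 in AxL. Of 12 other regulators of G protein signalling 0 passed (9 negative, median -0.10, or -0.03 after cyclic loess). The 2 with the smallest p, both of which immune cells express, differed in sign, Rgs1 at 0.36 (adjusted p = 0.0644) and Rgs10 at -0.31 (adjusted p = 0.0688). Basement membrane genes had 0 of 12 passing and 11 negative (median -0.11, or -0.09 after cyclic loess). Lama2, a laminin chain, had -0.15 (adjusted p = 0.206) and Sparc -0.23 (adjusted p = 0.210). The intermediate filament genes Vim (0.35, adjusted p = 0.228) and Nes (-0.07, adjusted p = 0.480) led a list of 4 with 0 passing.

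Cell types next to mural cells were read from their own lists. All 22 measured endothelial genes had negative differences (median -0.19, or -0.22 after cyclic loess). Of them 4 fell (2 with the mean of each gene's probe sets, 7 with repeated quantile normalization). The largest of the 4 were Itm2a (-0.52, adjusted p = 0.0143), Adgrf5 (-0.48, adjusted p = 0.0392) and Ptprb (-0.44, adjusted p = 0.0331). The mean level of the endothelial list ran from 8.39 to 8.55 in TPlp+AxL and from 8.55 to 8.81 in AxL. With that mean as a covariate the difference of the brightest probe set was -0.02 (SE 0.09) for Rgs5 and -0.0032 (SE 0.21) for Vtn. Notch3 had -0.11 (SE 0.08) and Acta2 -0.30 (SE 0.18). Each had a limma adjusted p of 0.999, and the fit called 0 of the 45037 probe sets. The covariate itself differs between the groups, so its part in these values and that of the T cells cannot be told apart.

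Fibroblast genes of the meninges and perivascular space had 13 of 14 negative differences (median -0.13, or -0.11 after cyclic loess, 0 passing). Their means were 8.95 to 9.13 in TPlp+AxL and 9.05 to 9.43 in AxL. Their smallest p values were those of Islr (-0.29, adjusted p = 0.147) and Ptgds (-0.29, adjusted p = 0.150). With the fibroblast mean as a covariate the brightest Rgs5 probe set had -0.54 (adjusted p = 0.336). The choroid plexus list had 0 of 13 passing, led by Kl (-0.43, adjusted p = 0.572) and Tmem72 (-0.13, adjusted p = 0.588). TPlp+AxL 1 (9.31), AxL 3 (10.06) and AxL 5 (9.20) stood apart from the other 7 arrays, which had choroid plexus means of 7.99 to 8.16. Without these 3 arrays the differences were -0.52 for Rgs5 (adjusted p = 0.395), -0.43 for Vtn, -0.12 for Notch3 and -0.22 for Acta2. In that fit 0 of the 20 mural probe sets passed, but only 1 of all 45037 probe sets did. Myeloid genes had 8 of 11 passing, all higher, led by Chil3 (2.18), Plac8 (1.92) and S100a9 (1.18). Their means ran from 9.54 to 9.97 in TPlp+AxL and from 8.68 to 8.997 in AxL. Their part in the Anpep and Ifitm1 values was not tested. The blood list had 2 measured genes, Hba-a1 (-0.02) and Alas2 (0.01), and 0 passed. The hippocampal neuron list, a check of the tissue label, had means of 10.73 to 10.86 in TPlp+AxL and 10.78 to 10.92 in AxL with 0 of 10 passing, and Syt1 (-0.24, adjusted p = 0.117) and Camk2a (-0.19, adjusted p = 0.279) had the smallest p. Dimmer probe sets of Srf, Notch4, Tgfbr1, Kl, Abcc8 and Syt1, and some of those of Nes, Jag1, Tpm1, Sparc, Ptprb and Camk2a, had the opposite sign to the one given.

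**Figure D4:**
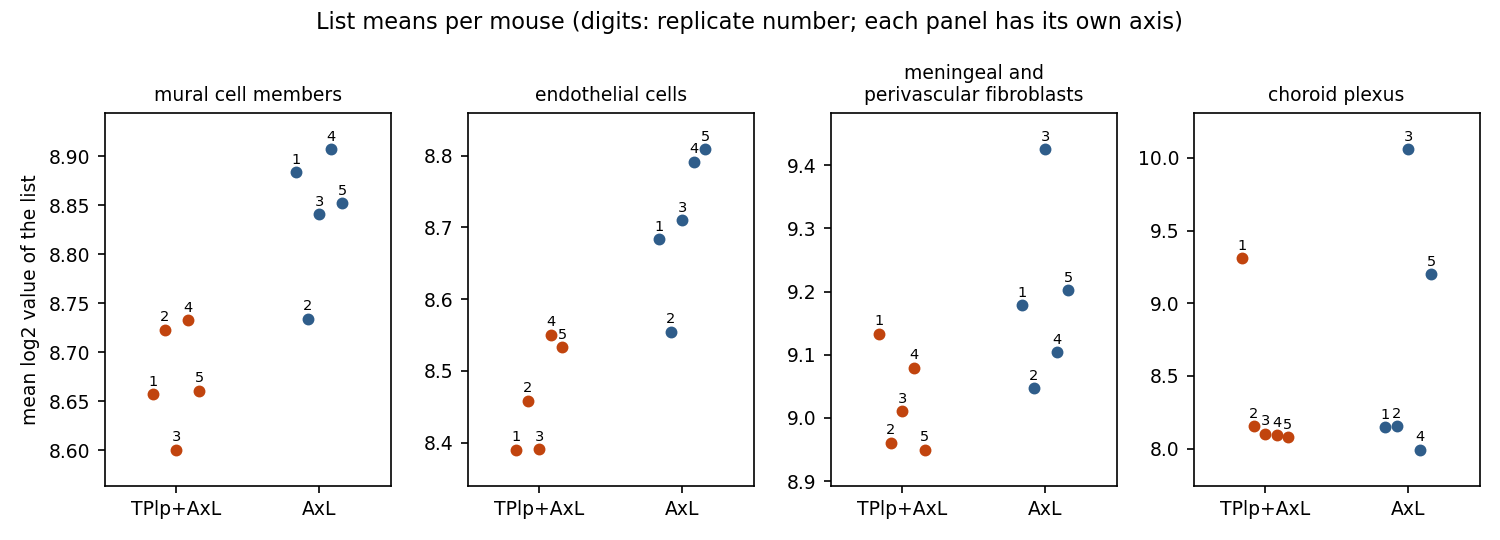
Mean log2 value of 4 gene lists (vertical axis, own scale in each panel) in each mouse, TPlp+AxL left of AxL, with the replicate number beside each point. AxL 2 is the lowest AxL array for the mural cell genes and the endothelial genes, and TPlp+AxL 1, AxL 3 and AxL 5 are high for the choroid plexus genes.

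The mean of the 9 brightest mural probe sets was 8.66, 8.72, 8.60, 8.73 and 8.66 in TPlp+AxL mice 1 to 5, against 8.88, 8.73, 8.84, 8.91 and 8.85 in AxL mice 1 to 5. AxL 2 was the lowest AxL array and lay beside TPlp+AxL 4. The genes whose values followed those of Rgs5 most closely within the groups, over the 10 arrays after each group's mean was subtracted, were sought among 11993 genes with a signal above the median. They were Junb (r = 0.910, rho = 0.891), Egr1 (r = 0.900, rho = 0.794), Abcb1a (r = 0.898, rho = 0.915), Dusp6 (r = 0.895, rho = 0.770) and Podxl (r = 0.881, rho = 0.927). Junb, Egr1 and Dusp6 are induced within minutes to hours of growth factor signalling or neuronal activity, while Abcb1a, an efflux transporter, and Podxl are expressed by brain endothelium. Without the 2 arrays farthest from the Rgs5 median, r was between 0.784 for Egr1 and 0.940 for Abcb1a. For Acta2 they were Ddr2 (r = 0.919), a collagen receptor of mesenchymal cells, Tbx19 (r = 0.877), Brpf3 (r = 0.872), Rhd (r = 0.865) and 4732416N19Rik (r = 0.861), and r for Brpf3 was 0.595 without the 2 arrays farthest from the Acta2 median. These are the highest of many values over arrays that share tissue and processing, and they are given as descriptions.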

How the data were processed

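RNA from 10 hippocampi was hybridised to Affymetrix mouse arrays, 1 per mouse, per the labels' protocols. The authors deposited log2 values, and the submitters' processing notes name RMA as the method, with its software and version not given in the sources used here. In all there were 45101 probe sets, and 64 controls were left out. Symbols came from the platform annotation and were updated by Entrez identifier in a RefSeq gene table of GRCm38.p6. Of 34945 probe sets annotated to a single gene, 34741 were found there, while 932 list several genes and 9160 none. Genes outside the 9 were read from their brightest probe set.

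The group difference was fitted with lmFit and eBayes of limma 3.58.1 (two-sided) in R 4.3.3, with no filter or further normalization, and p-values were adjusted by Benjamini-Hochberg across the 45037 probe sets. The p-values set each group difference against the spread between these mice, which eBayes moderates over all probe sets. With 5 arrays per group the precision is limited, and standard errors of the mural probe sets ran from 0.03 to 0.13. The table has no detection calls, and 4 of the 20 mural probe sets lay below the 25th percentile of mean level. The fit was tested on simulated data with independent noise and differences larger than any mural difference reported here. That test therefore does not cover differences of the reported size. The members, the 16 other gene lists and the tests were chosen with earlier results of these data known. From each other list the text names up to 3 genes past the threshold with the largest difference, or, failing that, the 2 lowest in p, and for Rgs5 and Acta2 the 5 most correlated genes.

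Other settings were array weights, a robust fit with a variance trend, a filter below the 25th percentile of mean level, subtracting array medians, repeated quantile and cyclic loess normalization, a replicate block, 3 list means as covariates, each array left out, an adjusted p under 0.10 and, for lists, the mean of a gene's probe sets. Leaving out AxL 3, AxL 5 and TPlp+AxL 1 together was added after the data were seen.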

Additional observations from a re-analysis of the deposited data

Results flagged for a closer look

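Of 74 group values checked (20 mural probe sets and 17 list means in both groups), 3 held 1 array far from the other 4 of its group. Chance gives about 1 in 20. The dimmer Pdgfrb probe set (1417148_at) was low in AxL 5, at 7.61. The choroid plexus mean was high in TPlp+AxL 1, at 9.31. The blood mean, over 2 genes, was high in TPlp+AxL 2, at 7.38. Their causes were not tested.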

How the results depend on the processing

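The count of mural probe sets past the threshold, 0 as reported, was 1 with a trended and robust variance, without probe sets below the 25th percentile of level, with array medians subtracted, with repeated quantile normalization, with array weights or at an adjusted p under 0.10. In each of these the brightest Rgs5 probe set was the one. The count ran from 0 to 2 with 1 array left out, where both calls without TPlp+AxL 4 were Rgs5 probe sets. It was 0 with cyclic loess, with each of the 3 list means as a covariate, and without AxL 3, AxL 5 and TPlp+AxL 1. The limma adjusted p of the brightest Rgs5 probe set was 0.336 with the fibroblast mean and 0.0944 with the choroid plexus mean as a covariate. Replicate numbers are shared between the groups, but same-numbered deviations correlated at -0.22 to 0.36 and 2 of 10 arrays correlated best with their own number. With the number as a replicate block the count was 1 (Rgs5, adjusted p = 0.0162) and the whole table had 241 calls in place of 376. It had 753 calls with array weights, 757 at an adjusted p under 0.10, 136 with the fibroblast mean, 0 with the endothelial mean, 1 without the 3 arrays, and 185 (without TPlp+AxL 4) to 460 (without AxL 2) with 1 array left out.

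Apart from leaving out single arrays, 205 of 216 recomputed differences of mural probe sets kept their sign. The trended and robust variance, the filter on level and the replicate block leave each difference as it was. Their values are among the 205 and kept their sign by design. With the endothelial mean as a covariate the sign turned in Rgs5 1420942_s_at (0.19), Pdgfrb 1436970_a_at (0.0518), Des 1426731_at (0.0288), Des 1426732_at (-0.0794), Vtn 1455098_a_at (0.0532) and Acta2 1456658_at (-0.0753). Quantile normalization turned that Pdgfrb value (0.0173) and Des 1426732_at (-0.00031). The same Pdgfrb value was 0.0271 with cyclic loess, 0.0033 with array weights and 0.0060 without the 3 arrays, and it ran from -0.0426 (without TPlp+AxL 4) to 0.0063 (without TPlp+AxL 1) with single arrays left out. The cause was not tested. Counts changed in 5 lists with the mean of a gene's probe sets or with cyclic loess. With the mean of a gene's probe sets, 1 further pericyte gene, 2 regulators of G protein signalling, 1 angiopoietin or TGF-beta gene and 2 endothelial genes passed, against 0, 0, 0 and 4 as reported, and 9 myeloid genes passed, against 8. With cyclic loess, 1 pericyte gene, 1 angiopoietin or TGF-beta gene and 6 endothelial genes passed. With repeated quantile normalization 7 endothelial genes, 1 pericyte gene and 1 angiopoietin or TGF-beta gene passed. In that setting 1 intermediate filament gene also passed, against 0 as reported. Dim probe sets, with no detection call, limit what can be said of Acta2 and Abcc9 beyond their brighter probe sets.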
